A study of Mus musculus with 6 samples.

Results

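The dual-specificity MAP kinase phosphatases described here are 10 genes, Dusp1, Dusp2, Dusp3, Dusp4, Dusp5, Dusp6, Dusp8, Dusp10, Dusp14 and Dusp16, of 54309 genes in the deposited table. They were chosen by gene symbol, and the TPM values (a share of each library's transcripts, corrected for length) of all transcripts with the same gene identifier were summed. All 10 were found, each under 1 identifier. RNA came from lumbar dorsal root ganglia (levels 4 to 6), which hold the cell bodies of sensory neurons, of C57bl/6 males 8 to 10 weeks old. Both sciatic nerves had received an adeno-associated virus (AAV), and 4 weeks later the dorsal columns, which carry the central axons of these neurons, were severed; tissue was taken 24 hours after that injury. The virus carried GFP alone (AAV-GFP, 3 libraries) or leptin with GFP (AAV-Leptin-GFP, 3 libraries), so every animal was both injected and injured. There was no uninjured or uninjected group, no promoter of the vector is named in the labels, and the ganglia were dissociated with enzymes before neurons were enriched on an albumin gradient. Nothing says whether a library is 1 animal or a pool, so the spread behind each p-value is that between libraries and may be technical in part.

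MAP kinases are switched on by phosphorylation of a threonine and a tyrosine in their activation loop, and dual-specificity phosphatases switch them off by removing both. In many cells the genes of the nuclear members are transcribed within minutes of MAP kinase activation, which makes them feedback inhibitors and readouts of the pathway. In injured sensory neurons ERK, JNK and p38 MAP kinases carry signals from the axon to the nucleus. Leptin, an adipose hormone, acts through the receptor Lepr on JAK-STAT and also on ERK signalling. The comparison asks how leptin delivered to sensory neurons altered gene expression after a central axon injury.

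In short, Dusp1 rose with leptin, and no other gene of the family passed the test. Dusp1 was 1.63 times as high in mean TPM with AAV-Leptin-GFP as with AAV-GFP. Among the tested genes Dusp6 was next, at 1.40 times (1.25 times for its main transcript), and did not pass. The most abundant member, Dusp3, was at 0.907 times and did not pass either. Dusp2, too low to be tested, was at 2.20 times, from 0.391 to 0.862 mean TPM with overlapping groups. Of the Dusp1 difference, 45.6% lay on transcripts annotated as keeping an intron. That class was higher with leptin over all genes, at a median log2 fold change of 0.88. The spliced Dusp1 transcript was at 1.37 times and did not pass as a single transcript (limma adjusted p = 0.0635). Of 15 alternative analyses, 7 kept Dusp1 past the test. Of the 10 genes, 9 had a mean of at least 1 TPM and were tested, and Dusp2 lay below that. Of these 9, 1 was called higher (limma adjusted p under 0.05 over all 15108 tested genes) and 0 lower, where the share called over all tested genes was 1.54% higher and 0.0662% lower, or 1.61% in either direction. At an unadjusted limma p under 0.05, 2 members were higher (11.3% of all tested genes) and 1 was lower (8.19%). The 3 libraries of one group did not overlap those of the other for 3 of 9 members, 2 with leptin above (13.3% of all tested genes) and 1 with leptin below (11.9%). That is near the 25.2% of all tested genes in either direction, so that count says nothing particular about the family. The median log2 fold change of the 9 was 0.13, against -0.00016 over all tested genes. In bulk RNA, fewer cells of a type and less RNA per cell cannot be told apart.

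**Figure D1:**
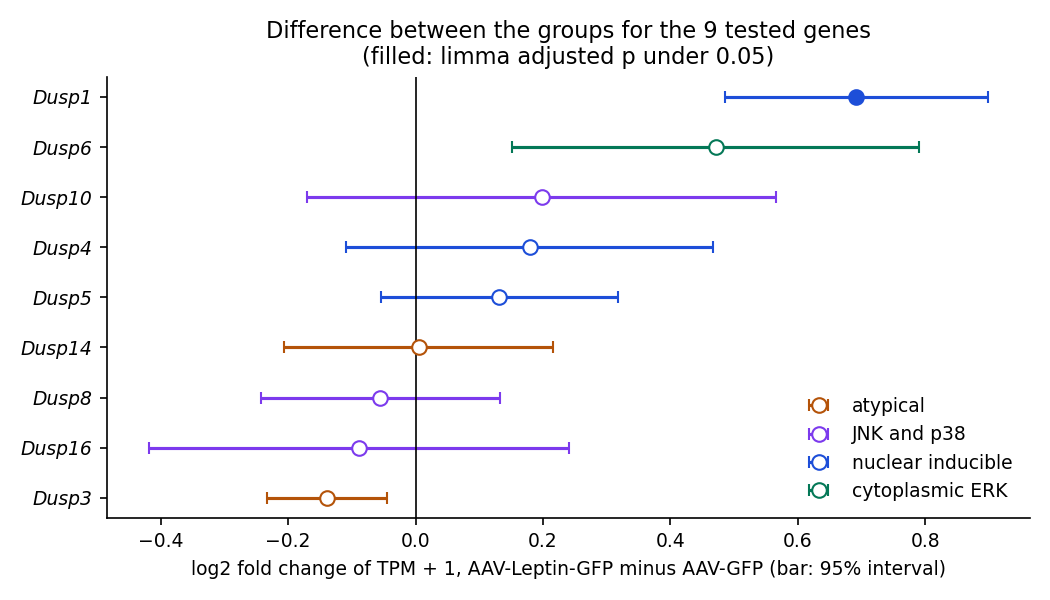
Log2 fold change of TPM + 1 (x axis, AAV-Leptin-GFP minus AAV-GFP, 3 libraries each) for the 9 tested genes, with 95% intervals from limma and colours for the class of phosphatase. Dusp1 (0.69) is the one filled point, and the intervals of Dusp6 and Dusp3 also lie on one side of 0 although neither passed after adjustment.

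The promoters of 3 members are shown because they hold, in the 250 bases before and 50 after the start site, the elements through which MAP kinase and cAMP signals are known to induce this kind of gene. They are RefSeq sequences on GRCm38.p6, and 9 of the 10 members matched an entry, all but Dusp4. Capitals mark matches, on either strand, to the cAMP response element CRE (TGACGTCA), its core (TGACG, which lies within the CRE on both strands), AP-1 (TGANTCA), a STAT element (TTCNNNGAA) and the CArG box that binds serum response factor. Dusp1, which rose, is at chr17:26508423-26508722 on the minus strand. Dusp5 is at chr19:53528895-53529194 on the plus strand, and Dusp8 at chr7:142095235-142095534 on the minus strand.
Dusp1: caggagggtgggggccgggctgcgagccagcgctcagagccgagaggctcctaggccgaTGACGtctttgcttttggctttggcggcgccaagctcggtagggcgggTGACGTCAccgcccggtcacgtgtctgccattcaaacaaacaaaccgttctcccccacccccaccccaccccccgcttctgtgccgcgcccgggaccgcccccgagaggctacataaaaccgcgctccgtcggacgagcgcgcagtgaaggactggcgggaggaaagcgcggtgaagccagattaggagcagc
Dusp5: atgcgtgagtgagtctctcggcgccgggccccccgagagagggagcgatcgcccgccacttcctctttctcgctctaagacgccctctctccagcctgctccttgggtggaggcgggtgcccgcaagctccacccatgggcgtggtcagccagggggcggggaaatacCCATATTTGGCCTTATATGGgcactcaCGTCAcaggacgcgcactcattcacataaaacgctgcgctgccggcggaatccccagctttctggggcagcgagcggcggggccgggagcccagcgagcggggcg
Dusp8: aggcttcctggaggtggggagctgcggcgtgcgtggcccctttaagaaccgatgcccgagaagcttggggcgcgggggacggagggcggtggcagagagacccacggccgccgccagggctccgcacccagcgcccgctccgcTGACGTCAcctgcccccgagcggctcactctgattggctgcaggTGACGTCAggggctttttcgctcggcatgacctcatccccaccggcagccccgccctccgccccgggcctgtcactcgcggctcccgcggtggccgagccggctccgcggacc

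The Dusp1 window holds 1 full CRE, 143 to 136 bases before the start site, and a further core 191 to 187 bases before it. The Dusp8 window holds a pair of full CREs, at 107 to 100 and 63 to 56 bases before the start. In Dusp5, 2 CArG boxes follow each other without a gap, from 82 to 73 and from 72 to 63 bases before the start. A full CRE was found in 2 of the 9 member promoters and in 1.79% of 32851 promoter windows of the same length, the CRE core in 5 of 9 and 20.8%, and a CArG box in 1 of 9 and 1.63%. The STAT element was found in 1 of 9, that of Dusp14, and in 8.30% of all windows, and AP-1 in 0 of 9 and 7.81%. The member promoters were rich in G and C, at 57.3% to 73.3% against a median of 52.7% over all windows. These matches describe the letters of the windows and say nothing about binding in these cells. Both Dusp1 and Dusp8 hold the full CRE, and of these only Dusp1 passed the test; the difference between their fold changes was not tested.

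The nuclear, inducible phosphatases are Dusp1, Dusp2, Dusp4 and Dusp5. Dusp1 (ENSMUSG00000024190, chromosome 17, 26505590 to 26562128, minus strand, GRCm38), which acts on p38, JNK and ERK and is the classic early response phosphatase, stood at 39.3, 33.8 and 37.8 TPM in the AAV-GFP libraries. In the AAV-Leptin-GFP libraries it stood at 54.5, 66.2 and 60.5 TPM. Every AAV-Leptin-GFP library lay above every AAV-GFP library, and the lowest of the former exceeded the highest of the latter by more than either group's SD. The means were 36.9 ± 2.87 and 60.4 ± 5.83 TPM (SD, n = 3), a log2 fold change of 0.69 (SE 0.09, 95% interval 0.49 to 0.90, limma adjusted p = 0.0229). With the first AAV-GFP library left out the call was kept (limma adjusted p = 0.0209). It was lost with AAV-GFP library 2 (0.113) or 3 (0.131) left out, and with leptin library 1 (0.0769), 2 (0.137) or 3 (0.0803) left out, while the fold change stayed between 0.63 and 0.76. In the same order, all genes called higher numbered 3, 4, 10, 18 and 15 in those settings, against 233 with every library kept. Without AAV-GFP library 1 they numbered 409. Of the 15 alternatives tried, 7 kept the call, and the unadjusted limma p was under 0.05 in all 15.

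Dusp5, an ERK phosphatase confined to the nucleus, has 1 transcript and was listed at 24.8, 21.07 and 21.05 TPM with AAV-GFP, against 24.0, 25.3 and 24.1 TPM with leptin. AAV-GFP replicate 1 lay among the leptin libraries, so the groups overlapped. The log2 fold change was 0.13 (SE 0.08, 95% interval -0.05 to 0.32, limma adjusted p = 0.416), and 0.21 without AAV-GFP replicate 1. Dusp4, a nuclear phosphatase of ERK and JNK, was listed at 6.96, 6.04 and 7.32 TPM with AAV-GFP, against 8.18, 8.68 and 6.61 TPM with leptin. AAV-Leptin-GFP replicate 3 fell inside the AAV-GFP range, and the log2 fold change was 0.18 (SE 0.12, 95% interval -0.11 to 0.47, limma adjusted p = 0.476). With library 2 of either group left out it was 0.11, and with leptin library 3 left out it was 0.28. For both genes the interval leaves room for differences on either side of 0, but its upper bound is below the fold change measured for Dusp1.

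Dusp2, a nuclear phosphatase best known from activated immune cells, was the scarcest member and was not in the main test. It was listed at 0.505, 0.324 and 0.344 TPM with AAV-GFP, against 1.04, 0.419 and 1.13 TPM with leptin. AAV-Leptin-GFP replicate 2 overlapped the AAV-GFP libraries, and replicates 1 and 3 lay above all of them. With no filter on low values its log2 fold change was 0.40 (limma adjusted p = 0.406), a scale on which a gene this low moves little. Summed over the 4 nuclear genes, the level was 66.4 ± 5.18 TPM with AAV-GFP, against 93.5 ± 6.52 TPM with leptin, and Dusp1 made up most of both sums.

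**Figure D2:**
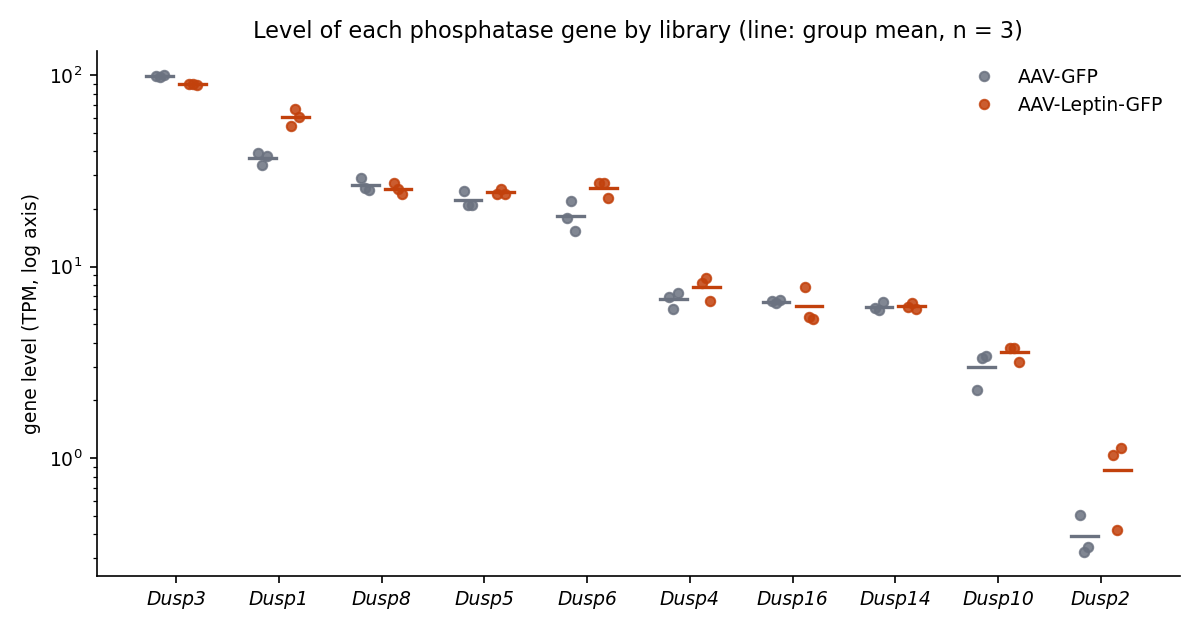
Gene level in TPM (log axis) of each of the 10 genes in every library, grey for AAV-GFP and orange for AAV-Leptin-GFP, with a line at each group mean. The groups are apart for Dusp1, Dusp6 and Dusp3 and overlap for the other members. Over all 10 genes the levels span from 0.324 TPM (Dusp2) to 100.6 TPM (Dusp3).

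Dusp6 (ENSMUSG00000019960, chromosome 10, 99263231 to 99267489, plus strand) encodes the cytoplasmic phosphatase selective for ERK, whose transcription follows ERK activity in many tissues. It was listed at 17.9, 22.1 and 15.3 TPM with AAV-GFP, against 27.2, 27.3 and 22.7 TPM with leptin. The groups did not overlap, but AAV-GFP replicate 2 and AAV-Leptin-GFP replicate 3 lay close together. The log2 fold change was 0.47 (SE 0.14, 95% interval 0.15 to 0.79), and it did not pass (limma adjusted p = 0.123, and 0.0794 to 0.313 over the alternatives). The main Dusp6 transcript, of 3 exons, stood at 16.7, 17.6 and 15.1 TPM with AAV-GFP, against 20.8, 19.2 and 21.7 TPM with leptin (log2 fold change 0.30, limma adjusted p = 0.134 over all tested transcripts). A short non-coding transcript of the gene was listed at 4.48 TPM in AAV-GFP replicate 2, at 4.73 and 5.70 TPM in the first and second leptin libraries, and at 0 in the other 3 libraries, which widened the spread of the gene sum.

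The phosphatases that prefer JNK and p38 are Dusp8, Dusp10 and Dusp16, and none passed the test. Dusp8, which is expressed mainly in brain and other excitable tissue, was listed at 29.0, 25.6 and 25.2 TPM with AAV-GFP, against 27.3, 25.4 and 23.9 TPM with leptin. The ranges overlapped over most of their length (log2 fold change -0.06, SE 0.08, 95% interval -0.24 to 0.13, limma adjusted p = 0.759). Dusp10 was listed at 2.27, 3.35 and 3.40 TPM with AAV-GFP, against 3.75, 3.78 and 3.16 TPM with leptin (0.20, SE 0.16, 95% interval -0.17 to 0.57, limma adjusted p = 0.537). AAV-GFP replicate 1 was its lowest library, and without it the log2 fold change was 0.06. Dusp16 was listed at 6.59, 6.47 and 6.67 TPM with AAV-GFP, against 7.79, 5.48 and 5.33 TPM with leptin (-0.09, SE 0.14, 95% interval -0.42 to 0.24, limma adjusted p = 0.780). AAV-Leptin-GFP replicate 1 was the highest library for Dusp16 and the other leptin libraries were the lowest, and a single Dusp16 transcript, listed at 2.42 TPM in replicate 1 and at 0 in replicates 2 and 3, held that spread. Without replicate 1 the Dusp16 log2 fold change was -0.24, and without replicate 2 or 3 it was -0.02 or -0.0047. The sum over the 3 genes was 36.2 ± 1.45 TPM with AAV-GFP, against 35.3 ± 3.30 TPM with leptin.

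The atypical phosphatases Dusp3 and Dusp14 lack the kinase-binding domain of the others. Dusp3 (ENSMUSG00000003518, chromosome 11, 101971143 to 101987013, minus strand), which dephosphorylates ERK and JNK among other proteins, was listed at 98.4, 97.3 and 100.6 TPM with AAV-GFP, against 89.8, 89.6 and 89.3 TPM with leptin. All AAV-Leptin-GFP libraries lay below all AAV-GFP libraries, and close to each other. The log2 fold change was -0.14 (SE 0.04, 95% interval -0.23 to -0.05), and it did not pass (limma adjusted p = 0.122, and 0.111 to 0.279 over the alternatives). The summed level of 10 sensory neuron markers was also lower with leptin, at 15278 to 15492 TPM against 15829 to 16262 TPM. The most abundant of them, Uchl1, was at 4926 mean TPM with AAV-GFP and 4644 with leptin. The markers did not all move together: 2 had log2 fold changes above 0, Isl1 (0.14) and Nefh (0.09). Avil (-0.01) and Rbfox3 (-0.02) lay near 0. The part of neuron content in the Dusp3 value was not tested. Dusp14 was listed at 6.06, 5.92 and 6.54 TPM with AAV-GFP, against 6.12, 6.44 and 6.03 TPM with leptin, so that the groups lay on top of each other (log2 fold change 0.0052, SE 0.09, 95% interval -0.21 to 0.22, limma adjusted p = 0.986).

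Among themselves the members were ordered in much the same way in both groups. TPM are corrected for length, so levels can be set side by side: with AAV-GFP the order was Dusp3 (98.8 TPM), Dusp1 (36.9), Dusp8 (26.6), Dusp5 (22.3), Dusp6 (18.4), Dusp4 (6.77), Dusp16 (6.57), Dusp14 (6.17), Dusp10 (3.01) and Dusp2 (0.391). The ranges of neighbours overlapped for Dusp5 with Dusp6, Dusp4 with Dusp16 and Dusp16 with Dusp14, so the order within these pairs is not given by the data. With AAV-Leptin-GFP Dusp6 (25.8 TPM) stood before Dusp8 (25.5) and Dusp5 (24.5), but the ranges of these neighbours overlapped. Dusp3 and Dusp1 stayed first and second, at 89.6 and 60.4 TPM with AAV-Leptin-GFP. All 10 genes together took 226 ± 5.14 TPM with AAV-GFP, against 250.4 ± 7.93 TPM with leptin.

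The rise of Dusp1 was split between its spliced messenger RNA and transcripts that still hold an intron. The spliced protein-coding transcript (ENSMUST00000025025, 4 exons, 1990 nt) stood at 35.3, 32.3 and 36.8 TPM with AAV-GFP, against 44.7, 47.9 and 49.8 TPM with leptin. The groups were apart, and the log2 fold change was 0.44 (SE 0.07, 95% interval 0.27 to 0.61, limma adjusted p = 0.0635 over 33615 tested transcripts). Over protein-coding transcripts only, tested as a gene sum, Dusp1 was called with a log2 fold change of 0.44 (limma adjusted p = 0.0444). Of the 23.4 TPM by which the gene means differed, protein-coding transcripts held 12.7 TPM (54.4%) and retained-intron transcripts 10.7 TPM (45.6%).

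The retained introns are shown by their ends because these mark the intron that each annotated transcript keeps. The values are estimates for whole transcripts, and no intron was counted by itself. ENSMUST00000126178 (3 exons, 2313 nt) keeps intron 2, 369 nt at chr17:26507205-26507573, and ENSMUST00000146077 (2 exons, 839 nt) keeps intron 3, 334 nt at chr17:26506651-26506984. Each line gives 10 exon and 20 intron bases on the minus strand from the GENCODE M21 transcript, with the GT or AG at the intron's edge in capitals.
Intron 2 start: ctacgatcagGTtagtaggagtccgggtcc
Intron 2 end: gactgtttttttgacttcAGgggggcccag
Intron 3 start: gacttcatagGTaaatggaataactatctg
Intron 3 end: cccataactttattttccAGactccatcaa

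The transcript that keeps intron 2 stood at 1.62, 1.20 and 0.681 TPM with AAV-GFP, against 6.01, 7.68 and 6.09 TPM with leptin. Its groups were far apart, with a log2 fold change of 1.82 (SE 0.22, 95% interval 1.30 to 2.35), and it missed the threshold narrowly (limma adjusted p = 0.0504, past it in 4 of 13 alternatives). The transcript that keeps intron 3 stood at 2.45, 0.291 and 0.309 TPM with AAV-GFP, against 3.85, 10.6 and 4.44 TPM with leptin. AAV-GFP replicate 1 and AAV-Leptin-GFP replicate 2 were the high library of their groups, and the log2 fold change was 1.90 (SE 0.51, 95% interval 0.67 to 3.14, limma adjusted p = 0.116). Its ratio of means, 6.19, was 20.95 with AAV-GFP library 1 left out and 4.08 with leptin library 2 left out. With the pseudocount at 5 or 0.1, the log2 fold change was 0.91 or 2.46 for the intron 2 transcript and 0.88 or 2.96 for the intron 3 transcript. Of the members' 37 transcripts 14 were tested, and limma called 0 of them, where 0.107% of all tested transcripts were called higher and 0.0238% lower. At an unadjusted limma p under 0.05, 4 of the 14 were higher (12.3% of all tested transcripts) and 1 was lower (6.01%). Within the classes, 0.306% of retained-intron and 0.0654% of protein-coding transcripts were called higher.

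**Figure D3:**
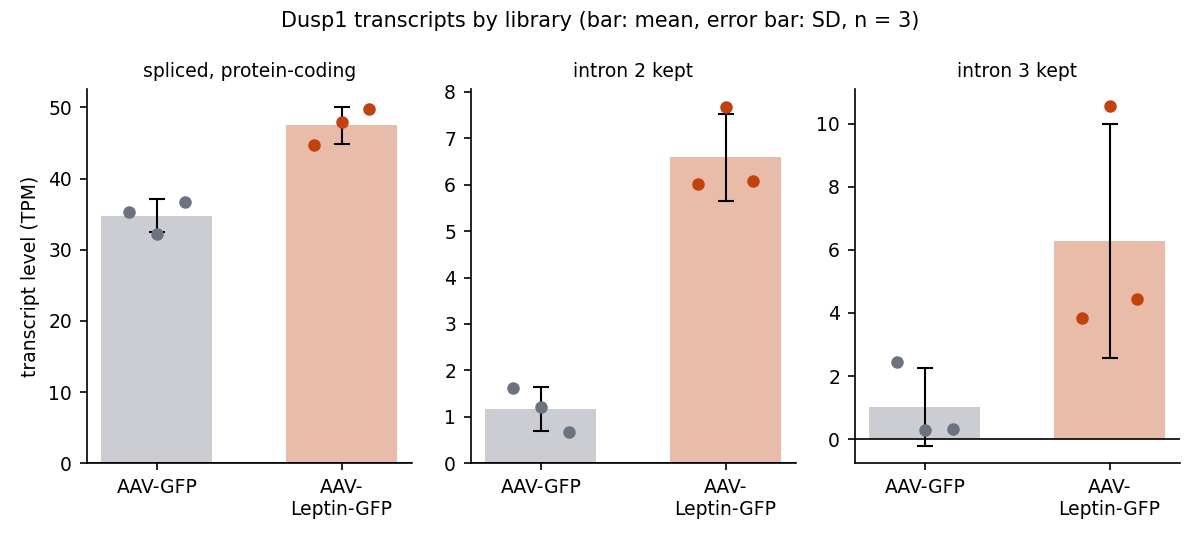
Level in TPM of the 3 main Dusp1 transcripts in each library, with a bar at the group mean and an error bar of 1 SD (n = 3). The panels have different y scales. All 3 means are higher with AAV-Leptin-GFP, by 1.37 times for the spliced transcript, 5.64 times with intron 2 kept and 6.19 times with intron 3 kept, in mean TPM.

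Retained-intron transcripts took 10.3%, 4.43% and 2.62% of Dusp1 TPM in the AAV-GFP libraries and 18.1%, 27.6% and 17.4% in the AAV-Leptin-GFP libraries. The mean share was 5.80% ± 4.04 and 21.02% ± 5.67 (SD, n = 3), and every AAV-Leptin-GFP library lay above every AAV-GFP library (exact two-sided permutation p = 0.1, the smallest that 3 against 3 libraries allow). The same class was also higher in the libraries as a whole: it took 2.10% to 2.50% of all TPM with AAV-GFP and 3.24% to 3.75% with AAV-Leptin-GFP. Over 4245 tested retained-intron transcripts the median log2 fold change was 0.88 and 84.1% were above 0, against a median of -0.03 over 22931 protein-coding transcripts. For 51.3% of the retained-intron transcripts all leptin libraries lay above all AAV-GFP libraries, against 7.89% of protein-coding and 15% of all tested transcripts, so that the 2 Dusp1 transcripts share this with most of their class. The part of this library-wide difference in the value of Dusp1 was not tested; the protein-coding value above leaves these transcripts out.

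**Figure D4:**
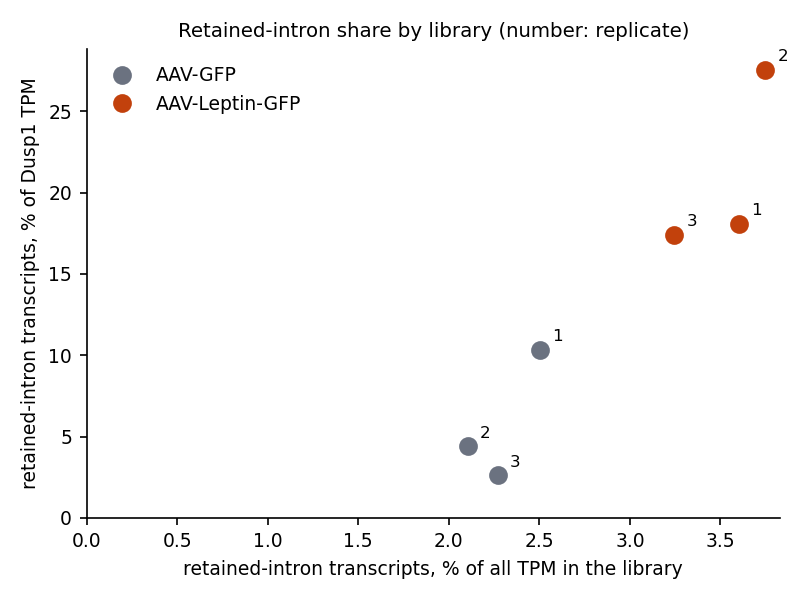
Share of Dusp1 TPM on retained-intron transcripts (y axis, percent) against the share of all TPM on such transcripts (x axis, percent) in each of the 6 libraries, numbered by replicate. The AAV-Leptin-GFP libraries lie higher on both axes, at 17.4% to 27.6% and 3.24% to 3.75%.

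All 10 members have fewer exons than the median tested gene, though not all are short. The most abundant protein-coding transcript has 3 exons in Dusp3, Dusp6 and Dusp14, 4 in Dusp1, Dusp2, Dusp4, Dusp5 and Dusp10, and 7 in Dusp8 and Dusp16, against a median of 9 over 13235 tested genes. These transcripts run from 1447 nt (Dusp14) to 5104 nt (Dusp16), and those of Dusp3 (4212 nt), Dusp8 (4804 nt) and Dusp16 are longer than the median of 2918 nt. ATTTA, the core of the AU-rich elements that shorten the life of messenger RNAs, occurs 4 times in the 690 nt 3′ untranslated region of Dusp1, or 5.80 times per kb, a density higher than that of 95.2% of these genes. In Dusp2 it occurs 4 times in 581 nt (6.88 per kb, higher than 96.9%). The other members hold between 0 (Dusp14) and 2.70 per kb (Dusp10), around the median of 1.25, and Dusp6 is at 0.841 per kb. Across the 6 libraries, the genes outside the family whose log2(TPM + 1) followed that of Dusp1 closely included the kinase gene Wnk2 (Pearson r = 0.997) and A330102I10Rik (0.996). With 6 libraries in 2 groups such values are common, since 242 genes exceeded 0.95.

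The rest of the MAP kinase pathway was given by 8 lists with 82 genes, of which 74 were tested. Of these, 2 were called higher and 0 lower (1.54% and 0.0662% of all tested genes). At an unadjusted limma p under 0.05, 18 were higher and 3 lower (11.3% and 8.19% of all tested genes), and their median log2 fold change was 0.05. Among 7 tested receptor-level ERK inhibitors of the Sprouty and Spred type, 1 rose, none fell and 6 had values above 0 (median 0.15). It was Spry2, a feedback inhibitor induced by ERK, which stood at 22.2, 19.6 and 23.6 TPM with AAV-GFP, against 33.3, 38.3 and 30.8 TPM with leptin. The groups did not overlap (log2 fold change 0.62, SE 0.10, limma adjusted p = 0.0365), but leaving out any 1 library ended the call. The limma adjusted p was then 0.0539, 0.151 and 0.136 for the AAV-GFP libraries left out in order, and 0.127, 0.165 and 0.0796 for the leptin libraries. Spry4 (0.27, limma adjusted p = 0.145) and Spred3 (0.36, limma adjusted p = 0.220) did not pass.

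Among 10 tested dual-specificity phosphatases that are not among the 10 chosen genes, 1 was called higher and none lower (median 0.01). It was Dusp11, a phosphatase that acts on RNA ends rather than on MAP kinases, which stood at 23.3, 17.3 and 17.1 TPM with AAV-GFP, against 42.0, 45.5 and 34.9 TPM with leptin (log2 fold change 1.05, SE 0.14, limma adjusted p = 0.0239). The limma adjusted p was 0.00889 with the first AAV-GFP library left out, and the call was lost with AAV-GFP library 2 (0.127) or 3 (0.136), or with leptin library 1 (0.121), 2 (0.162) or 3 (0.0645) left out. It was also lost with protein-coding transcripts only, at a log2 fold change of 0.63 (limma adjusted p = 0.0808). Dusp7, like Dusp6 a cytoplasmic ERK phosphatase, was at -0.04 (limma adjusted p = 0.867), and Dusp9 was listed at 0.049 TPM or less in every library.

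None of the 10 MAP kinases themselves passed, nor any of 7 MAP kinase kinases, 16 kinases above them, 7 scaffolds, 10 kinases that MAP kinases activate or 7 other phosphatases of MAP kinases. With 1.61% of all tested genes called, 0 is near that share for lists this short. At an unadjusted limma p under 0.05, 1, 1, 5, 2, 4 and 0 were higher, in that order (11.3% of all tested genes). By the same measure 0, 1, 0, 0, 0 and 1 were lower (8.19%). Medians of these lists lay between -0.07 (other phosphatases) and 0.08 (upstream kinases). Mapk3, which encodes ERK1, was the most abundant substrate gene at 1068 ± 47.0 and 997 ± 49.2 TPM (log2 fold change -0.10, limma adjusted p = 0.326). The genes with the smallest p in each list were Mapk12 (0.18, limma adjusted p = 0.198), Map2k3 (0.42, 0.0583), Map3k3 (0.39, 0.0641), Ksr1 (0.46, 0.101), Mknk1 (0.28, 0.0685) and Ppp2cb (-0.15, 0.106). With protein-coding transcripts only, Mknk1 was at 0.0026 (limma adjusted p = 0.991) and Map3k3 at 0.18 (0.360). Immediate early genes, which MAP kinases can induce alongside Dusp1, were listed with earlier results of these data known. Their link to MAP kinase activity was not tested here. Of 16 tested, 12 were called higher and none lower (1.54% and 0.0662% of all tested genes), with a median of 1.07. The largest were Fosb (2.48), Nr4a1 (1.84) and Zfp36 (1.68), so that Dusp1 (0.69) lay below that median. Fosb kept its call in 11 of 15 alternatives, Zfp36 in 9 and Nr4a1 in 7. All 3 calls were lost when AAV-GFP library 2 was left out (limma adjusted p = 0.0839 for Fosb, 0.116 for Zfp36, 0.139 for Nr4a1), and likewise for AAV-GFP library 3 (0.0779, 0.131, 0.153) and leptin library 1 (0.0501, 0.108, 0.123). Zfp36 (0.0573) and Nr4a1 (0.0694) also lost it with leptin library 3 left out, and Nr4a1 (0.146) with leptin library 2 left out.

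**Figure D5:**
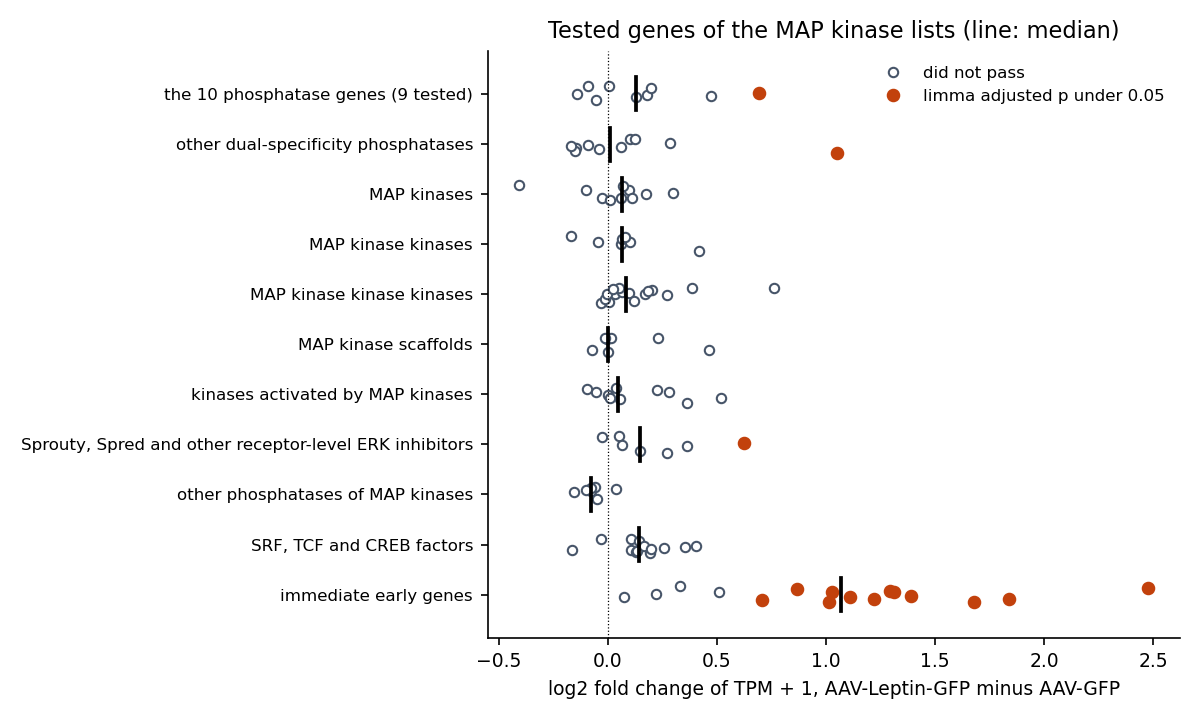
Log2 fold change of TPM + 1 (x axis) of every tested gene of the family and of 10 further lists, with a line at each list's median and filled points for genes past the limma threshold. Dusp1, Dusp11 and Spry2 are the filled points outside the immediate early genes.

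The libraries differed in ways that run with the groups. Transcripts listed above 0 numbered 55476 to 60572 with AAV-GFP and 61474 to 64423 with AAV-Leptin-GFP, and mitochondrially encoded genes took 5.66% to 6.13% and 7.35% to 9.15% of TPM. Every list of markers of other cells had values above 0 in all libraries, and none of the markers was at 0 throughout. The lymphocyte markers Cd3e, Cd3g and Trbc2 were each at 0 in some libraries, with group means of at most 0.209 TPM. S100a8 and S100a9 made up nearly all of the lymphocyte and neutrophil sum. Summed over 6 genes, satellite glia markers ranged over 8104 to 9234 TPM with AAV-GFP, against 7307 to 7955 TPM with leptin, and Schwann cell markers over 1301 to 1377 and 1144 to 1245 TPM. Both sums were lower with leptin without overlap, while none of their genes passed (Fabp7 -0.53, limma adjusted p = 0.106, and Mbp -0.18, 0.0943). Apoe alone held 7164 mean TPM of the satellite glia sum with AAV-GFP and 6229 with leptin. The satellite glia markers did not move together, since 2 of the 6 had values above 0, Cdh19 (0.20) and Glul (0.14). Of the 6 Schwann cell markers, 0 had values above 0. Macrophage (67.5 to 86.5 and 75.0 to 80.0 TPM), fibroblast (60.9 to 75.4 and 59.4 to 87.6), endothelial (18.3 to 21.9 and 13.7 to 27.0) and lymphocyte and neutrophil sums (111.0 to 386 and 203 to 264) overlapped. In each of these lists 0 genes passed limma's threshold and 0 had an unadjusted p under 0.05. The part of cell content in the Dusp1 value was not tested.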

How the data were processed

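RNA-seq was done on neuron-enriched cells of dorsal root ganglia, 3 libraries from each of 2 groups. The authors deposited TPM values, a length-corrected share of each library that sums to 1000000, for 140789 Ensembl transcripts. The submitters' processing notes name Salmon 1.6.0, DESeq2 1.34.0, Trim Galore 0.6.6 and FastQC 0.11.9 without saying what each did, and the builds GRCm38 and mm10. No source used here states the annotation release. TPM keeps no read number, so depth is unknown and no counting interval or detection limit is given. Reads that several transcripts of a gene could have given are shared out by estimation, so values of single transcripts are less certain than gene sums.

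Summing the transcripts of each gene identifier gave values for 54309 genes. Genes whose mean reached 1 TPM, 15108 in all, were tested on log2(TPM + 1), pseudocount 1, with limma 3.58.1 in R 4.3.3 (two-sided, leptin minus GFP, trend in the variance allowed, no covariates). The 33615 transcripts that reached the same mean were tested in the same way. A feature was called at a Benjamini-Hochberg adjusted p under 0.05 over all features tested, and every adjusted p given is limma's. Structures and coordinates come from GENCODE M21 on GRCm38, matched by identifier. It holds 97.4% of the transcript identifiers, but the version is the same for 37, so the deposited values rest on another release. Promoters are RefSeq windows on GRCm38.p6. Tables were read with pandas 2.3.3 and the R package data.table (1.17.8), and plots drawn with matplotlib 3.10.9 in Python 3.11.15. The gene test was tested on simulated data, but the outcome is not reported here, so nothing above rests on it.

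The genes and lists were chosen with earlier results of these data known. Named genes outside the family are, from each list, up to 3 called genes with the largest change or else the gene with the smallest p, plus the 3 genes most like the member with the smallest p, of which 1 is not reported here. Other genes with values were chosen after their values were seen. Alternatives were another pseudocount or filter, quantile normalization, removal of mitochondrially encoded genes, no trend, a replicate block, protein-coding transcripts only and leaving out each library.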

Additional observations from a re-analysis of the deposited data

How the results depend on the processing

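The number of called members was 1 and fell to 0 with no filter on low values, without a mean-variance trend and under the replicate block. Leaving out each library gave 0 to 1 called members, 0 to 1 called member transcripts and 0 to 1 called genes of the other pathway lists. The number of called member transcripts, 0 by limma with 5 at an unadjusted p under 0.05, was 2 with a pseudocount of 5, 1 without mitochondrially encoded genes and 1 without a trend. The 2 called genes of the other pathway lists became 0 with no filter, 5 without mitochondrially encoded genes, 0 without a trend, 1 under the replicate block and 1 with protein-coding transcripts only. Dusp1 kept a log2 fold change of 0.44 to 0.76 in all 15 alternatives, and its adjusted p was 0.0734 with no filter, 0.0594 without a trend and 0.0674 under the replicate block. Same-numbered libraries of the 2 groups did not deviate together (correlations of 0.03, -0.07 and -0.02 over genes), so the numbers are not taken to pair them. The sign turned for Dusp14 under quantile normalization (-0.10) and when a library was left out (-0.020 to 0.042), for Dusp8 (-0.10 to 0.0063) and for the markers S100a8 (-0.011 to 0.88) and Cdh5 (-0.27 to 0.015) when a library was left out. The share of Dusp1 TPM on retained-intron transcripts, 15.2 percentage points higher with leptin, ranged from 12.0 to 17.5 without 1 library, an alternative chosen after seeing the data. Genome-wide calls were 74 higher and 0 lower under the block and 35 and 0 without a trend, against 233 and 10. They were 4 and 0 with no filter, and 53 and 4 with protein-coding transcripts only. Calls higher were 409, 3 and 4 with the AAV-GFP libraries left out in order, and 10, 18 and 15 with the leptin libraries. With any library but AAV-GFP replicate 1 left out, most calls over all genes were therefore lost too. Read depth is unknown, so no limit on low values such as those of Dusp2 can be given.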

Other observations

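Genes of transcription factors and coactivators that can carry MAP kinase and cAMP signals to promoters were also tested. Only their RNA levels were measured, and the activity of the proteins was not tested. Limma called 0 of 13 genes, where 1.61% of all tested genes were called, and their median log2 fold change was 0.15. At an unadjusted limma p under 0.05, 2 were higher and 0 lower (11.3% and 8.19% of all tested genes). Values above 0 were found for 11 of the 13, against 7546 of all 15108 tested genes. Srf, which binds the CArG box, stood at 16.9 and 22.7 mean TPM (0.40, limma adjusted p = 0.155), and the CREB coactivator gene Crtc2 at 24.8 and 31.9 (0.35, limma adjusted p = 0.0899). With protein-coding transcripts only, Crtc2 was at 0.10 (limma adjusted p = 0.436). Creb1 was at 0.13 (limma adjusted p = 0.383). Heat shock genes, which respond to stress of the cells, gave 0 of 12 called and a median of -0.04. Of the 12, 2 were higher and 1 lower at an unadjusted limma p under 0.05 (11.3% and 8.19% of all tested genes). The gene of that list with the smallest p was Hspe1 (-0.15, limma adjusted p = 0.0985).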
